A study of Homo sapiens with 6 samples.

Results

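The nuclear genes for 9 chains of the mitochondrial tricarboxylic acid cycle were CS, IDH3A, IDH3B, IDH3G, OGDH, DLST, SUCLA2, FH and MDH2. They were taken by symbol from the count table, and each of the 9 matched 1 of the 61859 Ensembl genes in it. RNA was sequenced from IOMM-Lee, an established cell line from a malignant (grade 3) human meningioma, which grows from the coverings of the brain. The line was kept for 48 h at 0.2% oxygen in a hypoxia workstation (3 libraries) or grown in normoxia, with the same 48 h time label and an oxygen level that the labels do not state (3 libraries). All cells grew at 37 °C in serum-containing DMEM with antibiotics, the labels name no engineered allele, and the 6 libraries are called biological replicates of this 1 line.

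The cycle runs in the mitochondrial matrix. It joins acetyl groups to oxaloacetate, removes carbon dioxide in a pair of oxidative decarboxylations, makes a nucleoside triphosphate at succinyl-CoA ligase and returns to oxaloacetate through succinate, fumarate and malate. The NADH and ubiquinol it yields feed the respiratory chain, which hands their electrons to oxygen, and its intermediates also supply lipid, amino acid and haem synthesis. In low oxygen many cells are known to send less pyruvate into the cycle.

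The hypoxia libraries held 10619864 to 18447885 counts and the normoxia libraries 14685317 to 19554178. A floor of 3 counts stood at 0.181 to 0.316 CPM (counts per 1000000, with TMM-adjusted library totals) in hypoxia and 0.133 to 0.184 CPM in normoxia, a limit that allows for counting error alone. The oxygen-responsive genes CA9, VEGFA, NDRG1, PDK1, SLC2A1, ADM and BNIP3 rose, 7 of 7, at log2 changes of 2.50 to 6.45. Transcripts of the mitochondrial genome took 2.05% to 3.05% of counts in hypoxia and 6.42% to 7.29% in normoxia. On the second principal component, which held 7.83% of the variance, hypoxia replicate 3 lay at -47.7 and its fellow hypoxia libraries at 27.2 and 20.1. Of the meningioma markers, VIM stood at 5561 CPM or more in hypoxia and 2601 or more in normoxia. DSP was at 259 to 302 CPM in hypoxia and 88.9 to 93.6 CPM in normoxia. By contrast SSTR2 reached at most 1.15 CPM, PGR 0.105 CPM and PTGDS 0.0602 CPM in any library. The others of the 8 listed meningioma markers are not reported here. The highest sum over the markers of another cell type in any library was 1.12 CPM for leukocytes, 5.18 CPM for endothelium, 10.8 CPM for glia and 0.311 CPM for keratinocytes, and KRT14 and KRT1 were at 0 throughout. Glial markers summed to 4.33 to 6.42 CPM in hypoxia and 9.93 to 10.8 CPM in normoxia, and their part in the results was not tested. The largest part of each sum was OLIG2, at 2.17 to 5.40 CPM in hypoxia and 6.37 to 7.59 CPM in normoxia. GFAP, MBP, SOX10 and AQP4 each stayed at or below 1.90 CPM in every library.

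In hypoxia 5 of the 9 genes fell, 2 rose and 2 were not called (edgeR quasi-likelihood test, adjusted p under 0.05 over 16411 tested genes). OGDH, FH, IDH3A, SUCLA2 and CS fell, from 3.89-fold lower for OGDH to 1.21-fold lower for CS, and IDH3G and IDH3B rose 1.98-fold and 1.33-fold. DLST and MDH2 did not pass the test. Among all tested genes 62.2% were called, 31.2% as higher and 31.0% as lower, so the 7 calls of 9 stand beside a background in which most genes were called. For 8 of the 9 the groups stood clear of each other, as they did for 67.9% of all tested genes. The median log2 change of the 9 genes was -0.28, beside 0.01 over all tested genes. Together the 9 genes held 752 to 801 CPM in hypoxia and 933 to 1031 CPM in normoxia. Counts in a bulk library are pooled over cells, so fewer cells with a transcript and less of it per cell cannot be told apart. They are also relative, so a change in total RNA per cell cannot be seen.

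**Figure D1:**
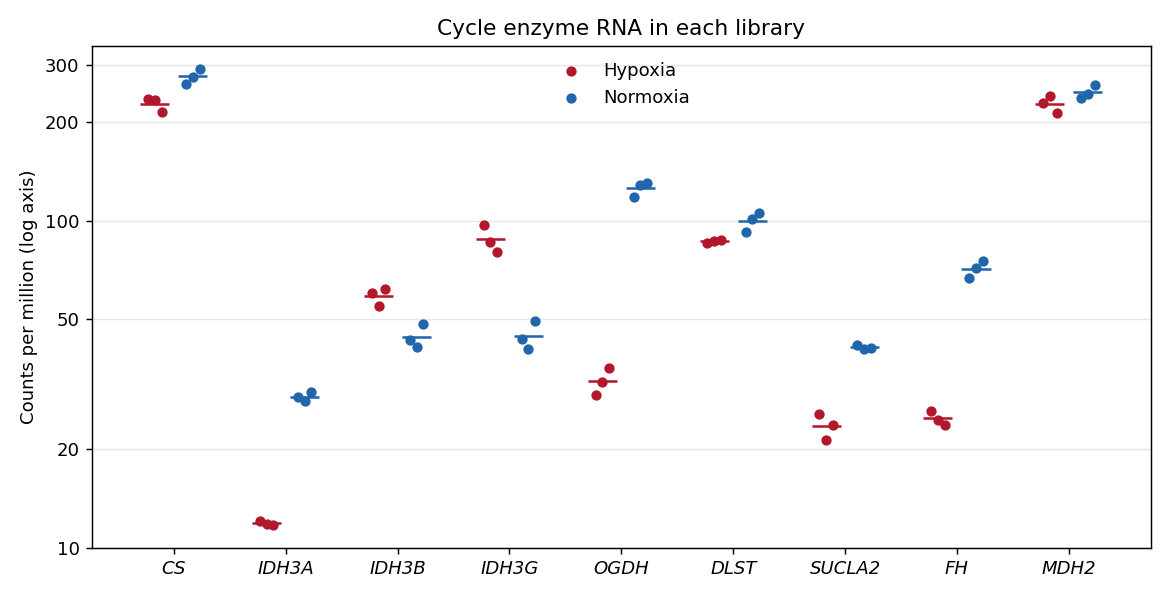
CPM of the 9 enzyme genes (log axis) in the 3 hypoxia libraries (red) and the 3 normoxia libraries (blue), with a bar at each group mean. OGDH lies between 29.3 and 35.3 CPM in hypoxia and between 118 and 130 in normoxia, IDH3G is the gene with the largest rise, and the groups overlap only for MDH2.

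The entry step is catalysed by citrate synthase, which condenses acetyl-CoA with oxaloacetate. CS (ENSG00000062485, GRCh38 chromosome 12, 56271699 to 56300392, minus strand) had 235, 234 and 215 CPM in the hypoxia libraries, against 262, 275 and 291 CPM in the normoxia libraries. Every hypoxia value lay below every normoxia value, but the gap was small. The log2 change was -0.28 ± 0.09 (SE; edgeR adjusted p = 0.0198). The call was lost without normoxia replicate 2 (log2 change -0.31, edgeR adjusted p = 0.0507) and without normoxia replicate 3 (log2 change -0.25, edgeR adjusted p = 0.065).

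NAD-dependent isocitrate dehydrogenase, which turns isocitrate into 2-oxoglutarate, is built of a catalytic alpha chain and beta and gamma chains that regulate it. Its 3 genes did not move together: the alpha gene fell while the beta and gamma genes rose. IDH3A, the alpha gene (ENSG00000166411, chromosome 15, 78131498 to 78171949, plus strand), had 12.0, 11.8 and 11.7 CPM in hypoxia, against 28.8, 28.1 and 29.8 CPM in normoxia. The hypoxia libraries differed among themselves by far less than the gap between the groups, and they rested on 114, 116 and 195 reads. The log2 change was -1.28 ± 0.12 (SE; edgeR adjusted p = 6.98e-06). IDH3B, the beta gene (ENSG00000101365, chromosome 20, 2658395 to 2664219, minus strand), had 60.2, 54.7 and 61.8 CPM in hypoxia, against 43.2, 41.1 and 48.3 CPM in normoxia. The groups stood apart, and the log2 change was 0.42 ± 0.11 (SE; edgeR adjusted p = 0.00598). This rise was the less stable of the pair. It was lost with library totals as the only scaling (log2 change 0.11, edgeR adjusted p = 0.415), under which the median of all genes shifted by -0.31. The call was likewise gone when low counts were not filtered (0.29, edgeR adjusted p = 0.0952) and without normoxia replicate 2 (0.34, edgeR adjusted p = 0.0566). IDH3G, the gamma gene (ENSG00000067829, chromosome X, 153785766 to 153794523, minus strand), had 97.2, 85.9 and 80.3 CPM in hypoxia, against 43.3, 40.4 and 49.4 CPM in normoxia. The lowest hypoxia library lay well above the highest normoxia library. The log2 change was 0.98 ± 0.12 (SE; edgeR adjusted p = 3.12e-05).

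The RNA balance among the IDH3 genes was read in each library as a ratio of CPM per kilobase of annotated exon. The log2 ratio of IDH3G to IDH3A was 4.35, 4.19 and 4.10 in hypoxia, against 1.92, 1.86 and 2.06 in normoxia, a difference of 2.27. For IDH3B over IDH3A the log2 ratio averaged 3.72 ± 0.09 in hypoxia and 2.02 ± 0.08 in normoxia (SD, n = 3 each), a difference of 1.70. Both ratios were higher in every hypoxia library than in any normoxia library. This order was fixed in advance by the gene values, since IDH3G and IDH3B rose and IDH3A fell, each with no overlap between the groups. The exact two-sided permutation test gave p = 0.1 for each, the smallest that 3 libraries against 3 allow, and 0.133 after Benjamini-Hochberg adjustment over the 4 ratios tested. For these ratios, which share IDH3A, the test therefore adds nothing to the tests of the single genes.

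The promoters of the 3 IDH3 genes and of FH are shown because each holds a core of the hypoxia response element, the letters that hypoxia-inducible factors are known to bind. The core was searched as ACGTG and GCGTG on both strands, a search that also takes in the E-box CACGTG, within the 250 bases before the gene start in RefSeq (GRCh38.p14). The 5′ to 3′ sequences below are on the strand of the gene, and capitals mark the core, which reads CACGT or CACGC where it lies on the opposite strand. They are chr15:78149112-78149361 (plus) for IDH3A, chr20:2664217-2664466 (minus) for IDH3B, chrX:153794376-153794625 (minus) for IDH3G and chr1:241519756-241520005 (minus) for FH.
IDH3A: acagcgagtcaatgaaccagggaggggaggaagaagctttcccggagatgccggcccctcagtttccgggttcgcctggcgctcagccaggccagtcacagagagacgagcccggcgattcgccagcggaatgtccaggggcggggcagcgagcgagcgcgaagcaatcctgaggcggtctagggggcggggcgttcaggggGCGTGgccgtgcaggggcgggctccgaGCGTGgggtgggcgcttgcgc
IDH3B: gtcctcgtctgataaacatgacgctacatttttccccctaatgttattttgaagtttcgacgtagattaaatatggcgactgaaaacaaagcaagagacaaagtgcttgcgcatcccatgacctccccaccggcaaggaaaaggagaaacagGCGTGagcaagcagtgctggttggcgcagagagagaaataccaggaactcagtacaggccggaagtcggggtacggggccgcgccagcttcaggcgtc
IDH3G: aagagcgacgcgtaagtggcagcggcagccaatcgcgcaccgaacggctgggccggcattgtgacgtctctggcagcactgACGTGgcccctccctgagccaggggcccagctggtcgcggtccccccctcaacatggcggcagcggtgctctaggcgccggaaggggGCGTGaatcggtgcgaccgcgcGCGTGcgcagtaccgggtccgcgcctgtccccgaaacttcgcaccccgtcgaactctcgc
FH: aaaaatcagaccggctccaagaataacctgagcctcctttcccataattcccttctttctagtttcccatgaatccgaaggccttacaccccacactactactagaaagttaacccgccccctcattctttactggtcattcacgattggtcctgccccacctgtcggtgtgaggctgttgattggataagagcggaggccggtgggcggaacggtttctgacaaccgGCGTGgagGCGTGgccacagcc

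A core stood in 4 of the 8 member promoters matched by symbol in the RefSeq table, against 43.2% of all 35116 promoters of that length, a share near the background. IDH3G had 3 cores, IDH3A and FH had 2 each and IDH3B had 1. Of the genes with a core, IDH3G and IDH3B rose and IDH3A and FH fell. The windows of CS, DLST, SUCLA2 and MDH2 held none. The GABPA type of ETS site, spelled CCGGAAGT, was in the windows of IDH3B, DLST and MDH2 and in 3.42% of all promoters, and the NRF1 core GCGCATGC was in 0 of the 8 and in 2.63% of all. The matches are letters in a window and not measured binding. The RefSeq starts are not the outer ends of the GENCODE genes given with each member. They lie 17864 bases inside that end for IDH3A and 36695 for SUCLA2, whose windows are therefore wholly within the GENCODE gene, and 3 to 148 bases inside it for the other 6, the most for IDH3G.

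The 2-oxoglutarate dehydrogenase complex, which makes succinyl-CoA, joins the decarboxylase OGDH, the succinyltransferase DLST and the lipoamide dehydrogenase DLD. OGDH had the largest change of the 9 genes. OGDH (ENSG00000105953, chromosome 7, 44606572 to 44709066, plus strand) had 29.3, 32.0 and 35.3 CPM in hypoxia, against 118, 129 and 130 CPM in normoxia. No hypoxia library came near the normoxia values, and the log2 change was -1.96 ± 0.11 (SE; edgeR adjusted p = 1.42e-07). By size of change OGDH ranked 1891 of the 16411 tested genes, followed among the 9 genes by FH at 3212 and IDH3A at 4207. DLST (ENSG00000119689, chromosome 14, 74881891 to 74903745, plus strand) had 85.6, 86.3 and 87.3 CPM in hypoxia, against 92.4, 101 and 105 CPM in normoxia. The groups did not overlap, but the log2 change of -0.20 (95% interval -0.38 to -0.02) had an edgeR adjusted p of 0.0739. DLST was called lower with upper-quartile scaling (log2 change -0.27), with library totals (-0.51), with no filter (-0.33) and without hypoxia replicate 3 (-0.24), at edgeR adjusted p of 0.0191, 0.000658, 0.0374 and 0.0264. DLD, which the pyruvate and branched-chain complexes share, had 47.3, 50.05 and 49.8 CPM in hypoxia, against 98.7, 100.4 and 112 CPM in normoxia (log2 change -1.08, edgeR adjusted p = 4.47e-06).

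The log2 ratio of OGDH to DLST, per kilobase, was -1.74, -1.63 and -1.50 in hypoxia, against 0.16, 0.16 and 0.11 in normoxia. With the length of all annotated exons, OGDH was thus the more abundant of the pair in each normoxia library and the less abundant in each hypoxia library. With the length of the principal transcript, DLST was the higher in normoxia too. It had 32.6, 35.5 and 37.1 CPM per kilobase there, against 28.2, 30.8 and 31.1 for OGDH. The log2 ratio differed between the groups by -1.76 (exact permutation test, two-sided p = 0.1, the smallest possible, adjusted 0.133). This separation was also fixed in advance by the gene values, since OGDH differed far more between the groups than DLST did. The test therefore adds nothing to the tests of the single genes. OGDHL, a relative of OGDH, peaked at 2.48 CPM, in a normoxia library.

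**Figure D2:**
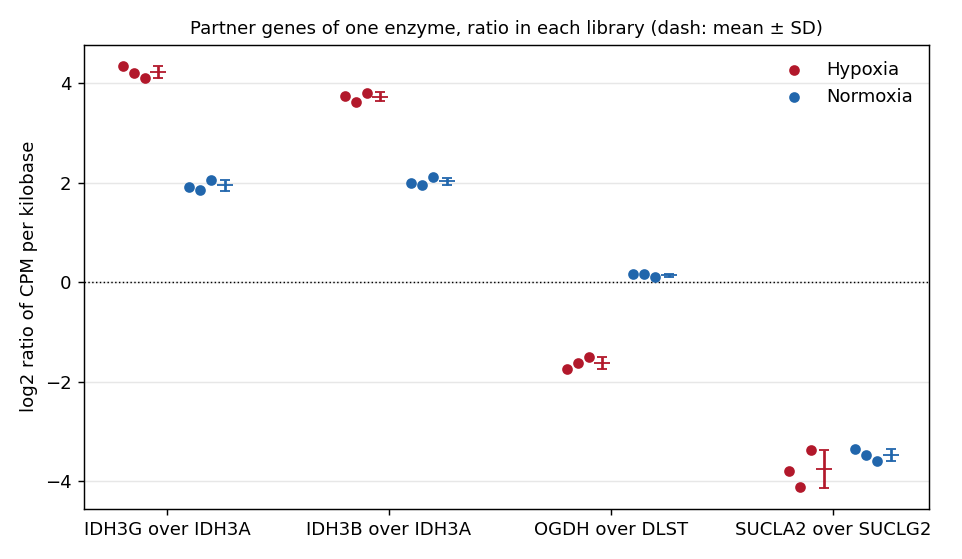
The log2 ratio of CPM per kilobase for 4 pairs of partner genes in each library, hypoxia (red) left of normoxia (blue), with the mean and SD as a dash and bar. IDH3G over IDH3A, IDH3B over IDH3A and OGDH over DLST separate the groups, and SUCLA2 over SUCLG2 does not.

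Succinyl-CoA ligase pairs a shared alpha chain, SUCLG1, with either an ADP-forming beta chain, SUCLA2, or a GDP-forming one, SUCLG2. SUCLA2 (ENSG00000136143, chromosome 13, 47745736 to 48037968, minus strand) had 25.6, 21.3 and 23.7 CPM in hypoxia, against 41.5, 40.5 and 40.9 CPM in normoxia. The normoxia libraries lay close together and all above the hypoxia libraries. The log2 change was -0.80 ± 0.11 (SE; edgeR adjusted p = 0.000128). SUCLG2 fell as well, with 122, 127 and 84.2 CPM in hypoxia, against 147, 156 and 169 CPM in normoxia (log2 change -0.50, edgeR adjusted p = 0.0116). SUCLG1 fell by 0.32 on the log2 scale (edgeR adjusted p = 0.0155), and this was lost without normoxia replicate 3 (edgeR adjusted p = 0.0521). The log2 ratio of SUCLA2 to SUCLG2, per kilobase of annotated exon, was -3.75 ± 0.37 in hypoxia and -3.47 ± 0.11 in normoxia (SD, n = 3 each). The groups overlapped (exact permutation test, two-sided p = 0.3). The annotated exons of SUCLA2 sum to 8928 bases and its principal transcript to 2192 (3090 and 2352 for SUCLG2). The length used therefore sets the level of this ratio, but not its difference between the groups.

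Fumarase hydrates fumarate to malate, and inherited loss of its gene predisposes to tumours. FH (ENSG00000091483, chromosome 1, 241497603 to 241519761, minus strand) had 26.3, 24.6 and 23.7 CPM in hypoxia, against 66.6, 71.5 and 75.0 CPM in normoxia. All hypoxia libraries were far below all normoxia libraries, and the log2 change was -1.52 ± 0.11 (SE; edgeR adjusted p = 7.74e-07). Malate dehydrogenase closes the cycle. MDH2 (ENSG00000146701, chromosome 7, 76048051 to 76067508, plus strand) had 229, 241 and 213 CPM in hypoxia, against 237, 244 and 260 CPM in normoxia. The groups overlapped, and the log2 change of -0.12 (95% interval -0.29 to 0.06) had an edgeR adjusted p of 0.273. With library totals alone MDH2 was called lower (log2 change -0.43, edgeR adjusted p = 0.00241).

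Per kilobase of annotated exon, the order of the 9 genes differed between the groups. In hypoxia MDH2 was highest at 62.6 ± 3.78 CPM per kilobase, followed by CS (35.6 ± 1.80), IDH3G (32.3 ± 3.17), IDH3B (22.9 ± 1.44), DLST (19.0 ± 0.184), FH (11.6 ± 0.603), OGDH (6.18 ± 0.579), SUCLA2 (2.64 ± 0.242) and IDH3A (1.74 ± 0.0212; SD, n = 3). In normoxia MDH2 (67.9 ± 3.23) and CS (43.1 ± 2.32) also led, and FH (33.2 ± 1.98), OGDH (24.1 ± 1.28), DLST (21.9 ± 1.44), IDH3B (17.2 ± 1.46), IDH3G (16.3 ± 1.69), SUCLA2 (4.59 ± 0.0587) and IDH3A (4.23 ± 0.130) came after. Neighbours with overlapping libraries were CS and IDH3G in hypoxia, and OGDH and DLST as well as IDH3B and IDH3G in normoxia. With the length of the principal transcript in place of all annotated exons, SUCLA2 came above OGDH in hypoxia (10.7 against 7.71 CPM per kilobase), and DLST above OGDH and IDH3G above IDH3B in normoxia. IDH3A was lowest in both groups with either length.

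Of the other 8 cycle genes compared 5 fell, 2 rose and 1 was not called, with a median log2 change of -0.41, beside 31.0% lower and 31.2% higher over all tested genes. With library totals alone 6 of these 8 fell and 0 rose, when 6905 of the 16411 tested genes were called lower and 3421 higher. IDH2, the NADP-dependent mitochondrial isocitrate dehydrogenase, had 48.2, 48.7 and 28.3 CPM in hypoxia, against 24.7, 23.5 and 27.0 CPM in normoxia, so hypoxia replicate 3 lay just above normoxia (log2 change 0.73, edgeR adjusted p = 0.00764, and 0.42 with edgeR adjusted p = 0.071 with library totals alone). Of the succinate dehydrogenase subunits, SDHC and SDHD, which anchor the enzyme in the membrane, fell by 0.97 and 0.70 on the log2 scale. The iron-sulfur subunit gene SDHB was not called (log2 change -0.14, edgeR adjusted p = 0.331). The flavoprotein gene SDHA had a log2 change of 0.42 (edgeR adjusted p = 0.0315), lost under 7 of the 14 other settings, and near-identical copies of SDHA make its counts uncertain.

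**Figure D3:**
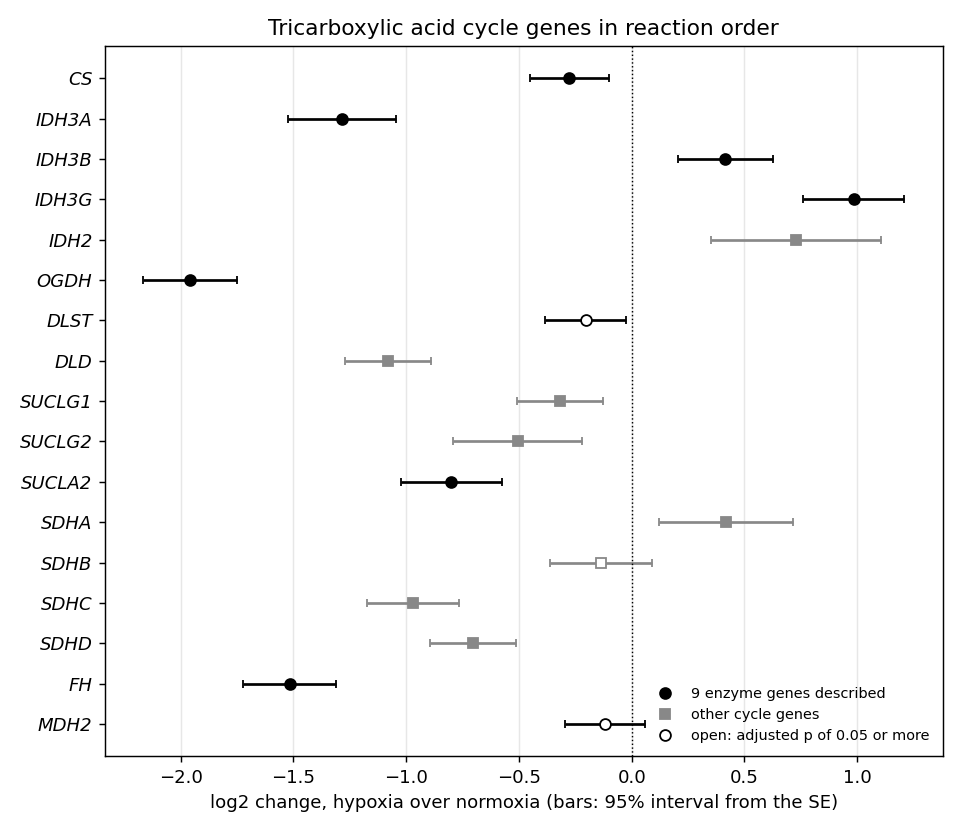
Log2 change of 17 cycle genes, hypoxia over normoxia, in the order of the reactions, with a 95% interval of 1.96 SE, for the 9 genes described (black circles) and the other 8 cycle genes (grey squares), open where the adjusted p was 0.05 or more. OGDH, FH and IDH3A lie farthest to the left, and IDH3G and IDH2 farthest to the right.

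Some members share at least 10% of their exon bases with another gene, and the strand setting of the counting is not given in the sources used here. SSR4, a translocon-associated gene on the opposite strand, shares 278 exon bases with IDH3G, which is 10.2% of its exon length. SSR4 rose too, with 159, 148 and 131 CPM in hypoxia, against 78.6, 84.4 and 93.1 CPM in normoxia, and its part in the rise of IDH3G was not tested. ACSBG1 covers 38.2% of the exon bases of IDH3A on the opposite strand but peaked at 0.577 CPM, in a normoxia library. The 7 annotated pseudogenes named after CS, DLST, SUCLA2 or FH held no more than 1 count in any library. STYXL1, whose start lies 47 bases from that of MDH2 on the opposite strand, was not called (log2 change -0.09, edgeR adjusted p = 0.614).

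The 2-oxoglutarate dehydrogenase complex needs lipoate, and iron-sulfur proteins take part in making it. Of 12 genes for lipoate synthesis, iron-sulfur assembly and relatives or partners of OGDH, 3 rose and 2 fell (2 and 4 with library totals alone), beside 62.2% called over all tested genes. The iron-sulfur assembly genes IBA57 and ISCA1 rose by 1.41 and 0.75 on the log2 scale, and the glutaredoxin GLRX5 fell by 1.09. LIAS, the lipoate synthase gene, was at 24.4 to 29.4 CPM in hypoxia and 22.4 to 25.9 CPM in normoxia (edgeR adjusted p = 0.257). Of 14 genes that feed carbon into the cycle or carry its intermediates, 7 fell and 3 rose (8 and 1 with library totals alone), beside 31.0% lower and 31.2% higher over all tested genes. For both lists, the background with library totals alone was 6905 of 16411 tested genes lower and 3421 higher. GOT2, the mitochondrial aspartate aminotransferase, and the malic enzymes ME3 and ME2 fell by 1.15, 1.12 and 1.05 on the log2 scale. GLUD1, glutamate dehydrogenase, had 106 to 150 CPM in hypoxia and 143 to 155 CPM in normoxia (edgeR adjusted p = 0.303).

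Of the cytosolic counterparts of cycle enzymes and their partners, 6 of 7 fell and 1 rose, with a median log2 change of -0.82, beside 31.0% of all tested genes lower and 31.2% higher. The rise was in the malic enzyme gene ME1 (log2 change 0.29, edgeR adjusted p = 0.0495), and with library totals alone its log2 change was -0.02 (edgeR adjusted p = 0.882). MDH1, the cytosolic malate dehydrogenase, had 63.2, 57.9 and 57.5 CPM in hypoxia, against 117, 117 and 116 CPM in normoxia (log2 change -0.97, edgeR adjusted p = 5.79e-06). Its mitochondrial relative MDH2 was not called, as given above, and the difference between them was not tested. The aspartate aminotransferase GOT1 fell by 1.26 on the log2 scale. ACLY, which cleaves exported citrate, fell to 93.8 to 106 CPM in hypoxia, against 187 to 210 CPM in normoxia (edgeR adjusted p = 6.28e-06).

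**Figure D4:**
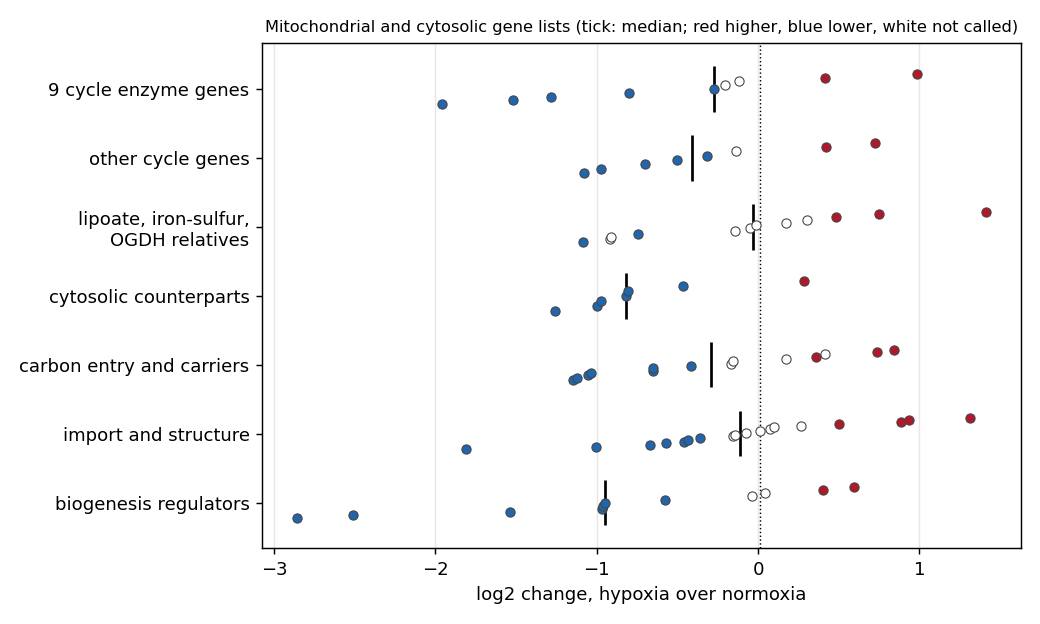
Log2 change, hypoxia over normoxia, of each tested gene in 7 lists, coloured red where called higher, blue where called lower and white where not called, with a tick at each list median and a dotted line at the median of all tested genes (0.01). The medians run from -0.95 for the biogenesis regulators to -0.03 for the lipoate and iron-sulfur list, and all but the cytosolic list hold white points.

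Among all other tested genes with a symbol, those closest to IDH3G in their centred log2 CPM over the 6 libraries were CARHSP1, NOP53 and PML, with root mean square differences of 0.05, 0.05 and 0.05. Closest to OGDH were the cell cycle transcription factor E2F1 (0.04), PFKFB2 (0.06), which sets the level of a glycolytic activator, and the riboflavin kinase RFK (0.07). E2F1 had 2.95, 3.26 and 3.61 CPM in hypoxia, against 13.3, 13.5 and 13.8 CPM in normoxia. With 2 groups that stand apart, such closeness mostly reflects a change of the same size.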

How the data were processed

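RNA from 3 hypoxia and 3 normoxia libraries was compared, grouped by sample title. Per the labels' protocols, RNA was column-purified and libraries were made with a NEBNext Ultra II kit. The authors deposited raw read counts for Ensembl gene IDs. Per the submitters' processing notes, the tools were DESeq2 1.37.5, featureCounts 2.0.1, HISAT2 2.1.0 and fastp 0.20.1, and the build was GRCh38.p13. Neither strand setting nor annotation release is given in the sources used here. A second table was not used because its cells run together. The line that names no gene held 0.00243% of counts and was left out. Symbols matched 61756 of 61859 genes. Coordinates and lengths are from GENCODE release 29 on GRCh38, and promoters from RefSeq.

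Counts were tested with edgeR 4.0.16 in R 4.3.3 by its quasi-likelihood F test, with dispersions estimated robustly, after filterByExpr (minimum count 10, minimum total 15) and TMM scaling. P-values were adjusted by Benjamini-Hochberg over 16411 genes, with a threshold of 0.05. An SE is the log2 change divided by the square root of F, and a 95% interval is 1.96 SE to each side. This multiplier is that of a normal distribution, so the intervals are somewhat narrower than the F test would give. Profiles were compared as log2 CPM with a prior count of 2. Ratios were compared by exact permutation of libraries. Alternatives were DESeq2 1.42.0, limma-voom (limma 3.58.1), other scalings and filters, a replicate block and leaving out each library.

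Tested on simulated data for hypoxia against normoxia (16411 genes), edgeR called 25.4% of genes with a 1.5-fold change, 71.6% at 2-fold and 95.5% at 4-fold. The simulation left 16211 genes unchanged and used a single dispersion for all genes, whereas 62.2% of genes were called in the data. Its rates therefore do not give the power of the real comparison. Replicates of a group were not copies of each other, with a chi-square per gene between 5.75 and 39.3. The label is biological replicates, with nothing on separate cultures, so p-values measure the spread between these libraries. The members and gene lists were chosen with earlier results of these data known. The named genes are the cycle genes compared here, the 3 largest called changes per other list (mean CPM of at least 1), its most abundant uncalled gene, and the 3 closest profiles to the largest rise and fall. Some genes under this rule are left unprinted. Others (SSR4, STYXL1, ACSBG1, OGDHL) are named for their position or relation to a member. ME1, NRF1 and PPARGC1A were chosen after their values were seen. Some genes that the rules would take are not reported here.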

Additional observations from a re-analysis of the deposited data

How the results depend on the processing

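The directions of all 9 genes held under every alternative run, as did the calls of OGDH, FH, IDH3A, SUCLA2 and IDH3G. The 4 ratios were rerun only with each library left out, and their directions held. With upper-quartile scaling DLST was called (log2 change -0.27) and 1 other cycle gene rose. With library totals alone DLST (-0.51) and MDH2 (-0.43) were called lower, IDH3B was lost (0.11), 1 member and 0 other cycle genes rose, and the split over all genes was 3421 higher and 6905 lower (33.1% higher, against 50.1%). With no filter, which shifted the median of all genes by -0.12, DLST was called (-0.33), IDH3B was lost (0.29), and 1 member and 1 other cycle gene rose. At an adjusted p under 0.01, 1 other cycle gene rose and 3 fell, against 2 and 5. DESeq2, limma-voom, RLE scaling and the stricter filter changed no call of the 9 genes.

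Leaving out each library in turn gave log2 changes of -0.34 to -0.25 for CS, 0.34 to 0.47 for IDH3B and -0.28 to -0.18 for DLST. It gave 1 to 2 members higher and 4 to 6 lower, and 1 to 2 other cycle genes higher. Without hypoxia replicate 3 the members were 2 higher and 6 lower. The cause of these shifts was not tested.

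Same-numbered libraries did not deviate together (correlations of -0.11, 0.09 and -0.04), so replicate numbers were not taken as pairs. With the replicate block OGDH changed by -1.96 and CS by -0.28 (edgeR adjusted p = 0.0459), the 2 rises and 5 falls were called again, and 9768 genes were called over the table, against 10208. IDH3A had the fewest reads, 114 in its lowest library, which limits its precision most.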

Other observations

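Regulators of mitochondrial biogenesis mostly fell: 7 of 11 were lower and 2 higher (8 and 0 when scaled by library totals only), with a median log2 change of -0.95, against 31.0% of all tested genes called lower. Scaling by library totals only called 6905 of the 16411 tested genes lower and 3421 higher. The 7 lower genes include PPARGC1A, which was barely detected, with 51 reads over the 6 libraries and at most 0.241 CPM in hypoxia. PPARGC1B, a coactivator of mitochondrial genes, had 2.74, 3.26 and 2.95 CPM in hypoxia, against 15.9, 17.6 and 17.7 CPM in normoxia (log2 change -2.51 ± 0.17, SE; edgeR adjusted p = 7.06e-07). TFAM, which packages mitochondrial DNA, fell by 1.54 and GABPB1, a partner of GABPA, by 0.97 on the log2 scale, while the transcription factor NRF1 rose by 0.59. Scaled by library totals only, NRF1 had a log2 change of 0.28 and was not called (edgeR adjusted p = 0.138). TFB1M, a mitochondrial ribosomal RNA methyltransferase, was at 21.8 to 28.9 CPM in hypoxia and 23.4 to 26.7 CPM in normoxia.

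Genes of mitochondrial import and structure went both ways, with 7 of 18 lower, 4 higher (12 and 3 with library totals alone) and a median log2 change of -0.11, a called share close to the 62.2% over all tested genes. Over all 16411 tested genes, library totals alone gave 6905 lower and 3421 higher. VDAC2, an outer membrane channel, had 351, 296 and 303 CPM in hypoxia, against 116, 125 and 141 CPM in normoxia (log2 change 1.31 ± 0.11, SE; edgeR adjusted p = 2.50e-06). The co-chaperonin HSPE1 fell by 1.81 on the log2 scale, and its partner HSPD1 was not called, at 685 to 744 CPM in hypoxia and 625 to 703 CPM in normoxia (edgeR adjusted p = 0.509). HSPE1, HSPD1 and VDAC2 have near-identical copies in the genome, so their counts are uncertain.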
